A study of Homo sapiens with 9 samples.

Results

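Fragments of H/ACA box small nucleolar RNAs (symbols that open with SNORA and a number) and of small Cajal body-specific RNAs (scaRNAs, symbols that open with SCARNA and a number) were examined in the small RNA profile of K562 cells. The genes were taken by symbol from the GENCODE annotation on GRCh37, and every deposited alignment that overlapped such a gene on its own strand was counted. This gave 449 genes out of 8508 annotated small RNA genes. As 65 symbols were carried by more than 1 gene (382 genes in all), a gene is named below together with the host gene in which it lies.

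K562 cells, an established line from chronic myelogenous leukemia, carry the BCR-ABL1 fusion. Untreated K562 cells of 3 biological replicates were profiled after size selection of inserts of 20–40 nt, and the deposited values pool the 3 replicates. The 6 samples of HEK293 cells, which received pools of overexpression vectors with or without Dox or a control vector without Dox, have no values used here. Since no value per replicate was used, nothing below has a replicate error or a test across replicates, and the Wilson 95% intervals cover counting error only.

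H/ACA RNAs guide the conversion of uridine to pseudouridine in ribosomal RNA (SNORA) or, in the Cajal body, in spliceosomal snRNAs (scaRNAs). A typical H/ACA RNA folds into a 5′ hairpin and a 3′ hairpin joined by a single-stranded hinge with the H box, and ends in a tail with the ACA box. Most human members are cut out of introns of host genes and are bound by dyskerin (DKC1), NHP2, NOP10 and GAR1. Some scaRNAs carry box C/D domains in place of, or next to, the H/ACA domain, and these guide 2′-O-methylation. Short products of H/ACA hairpins that resemble miRNAs are known, where Dicer, an RNase III enzyme, leaves duplexes of short RNAs with 2-nt overhangs at their 3′ ends.

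The 4 genes shown in full hold the pair of most reads with 2-nt overhangs (SCARNA3), another such pair (SNORA36A), the called fragment of most reads (SNORA36B) and a fragment cut inside the gene with no listed miRNA (SNORA56). They are printed on the sense strand of GRCh37 and 5′ to 3′, with called fragments (20–24 nt, defined below) in capitals. SCARNA3 lies at chr1:175937534-175937676 on the minus strand in COP1, SNORA36A at chrX:153996803-153996934 on the plus strand in DKC1, SNORA36B at chr1:220373888-220374018 on the minus strand in RAB3GAP2 and SNORA56 at chrX:154003273-154003401 on the plus strand in DKC1.
SCARNA3: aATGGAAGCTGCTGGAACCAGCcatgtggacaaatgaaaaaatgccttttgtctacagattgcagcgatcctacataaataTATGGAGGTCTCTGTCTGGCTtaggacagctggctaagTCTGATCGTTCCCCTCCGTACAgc
SNORA36A: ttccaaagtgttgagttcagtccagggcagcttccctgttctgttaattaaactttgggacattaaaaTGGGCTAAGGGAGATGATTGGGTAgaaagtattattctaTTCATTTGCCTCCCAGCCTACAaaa
SNORA36B: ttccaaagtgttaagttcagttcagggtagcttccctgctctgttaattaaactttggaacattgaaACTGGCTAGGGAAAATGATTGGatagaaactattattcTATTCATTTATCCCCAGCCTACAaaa
SNORA56: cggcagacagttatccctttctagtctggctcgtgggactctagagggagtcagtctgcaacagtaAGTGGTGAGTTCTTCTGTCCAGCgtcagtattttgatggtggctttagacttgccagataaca

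RefSeq lists mature miRNAs inside SCARNA3, SNORA36A and SNORA36B. They are shown with the seed (bases 2 to 8) in capitals, since the seed sets which miRNAs fall in 1 family. The table of mature sequences belongs to GRCh38.p14 and was matched to the genes by sequence.
miR-1843 (SCARNA3): uAUGGAGGucucugucuggc
miR-664a-3p (SNORA36B): uAUUCAUUuauccccagccuaca
miR-664a-5p (SNORA36B): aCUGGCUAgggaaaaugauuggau
miR-664b-3p (SNORA36A and SNORA36C): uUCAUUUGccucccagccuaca
miR-664b-5p (SNORA36A): uGGGCUAAgggagaugauugggua
Each of these 5 mature miRNAs has a seed of its own. The 3p product begins at position 106 of SNORA36B and at position 108 of the related SNORA36A, and the seeds are AUUCAUU and UCAUUUG.

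The fragments of the box C/D scaRNA SCARNA9, which held more reads than any other member, are of another kind. They are shown with TGATGA (the form of the C box searched) and a later CTGA (the form of the D box searched) in capitals. The first lies at chr11:93454709-93454737 and the second at chr11:93454964-93454993, both on the plus strand in CEP295, and the fragment of SCARNA6 lies at chr2:234197323-234197351 on the plus strand in ATG16L1.
SCARNA9, positions 31 to 59: atcaaTGATGAaactagccaaatCTGAgc
SCARNA9, positions 286 to 315: ggcaaTGATGAaaaggttttactaCTGAtc
SCARNA6, positions 2 to 30: gtcaaTGATGAatggtaaaaggtCTGAgt

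Reads fell on 212 of the 449 genes (47.2%), and 109 genes reached at least 10 reads, or 24.3% of the members. The share with at least 10 reads was 35.6% in box C/D snoRNA genes (SNORD), 23% in annotated miRNA hairpins and 11% in all small RNA genes that are no members. Of the other members, 103 had 1 to 9 reads and 237 had no listed alignment. Only 42 members reached 100 reads. All counts are recovered reads, meaning the deposited reads of an alignment divided by its number of near neighbours (same-strand alignments, its own counted too, with a summed difference of both ends of up to 3 nt). This division was inferred from the deposited values and is not stated by the authors. For SCARNA9 it turned 82204 deposited reads into 6417.

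All members together held 21343 reads, which was 0.0448% of all recovered reads, against 339931 reads of the 390 SNORD genes and 17387626 reads of the 3049 miRNA hairpins. The reads were unevenly spread. SCARNA9 alone held 6417 reads, or 30.1% of the total (29.5–30.7), and the 10 highest members held 58.3% (57.7–59.0). The SCARNA9 fragment at positions 31 to 59, with 4580 of its reads, has 2 exact matches in the genome. Those reads cannot be assigned to SCARNA9 by sequence.

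Background around the genes was low. For the 432 members whose neighbouring windows hold no other small RNA gene, the genes held 19168 reads, whereas windows of the same length 200 nt away held 226 reads upstream and 413 reads downstream. At least 10 reads were found in 100 of these genes, in 6 upstream windows and in 11 downstream windows. On the opposite strand, all 449 genes together held 65 reads, and a copy of SNORA31 with no sense read held 14 of them.

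Among the SNORA members, 92 of 398 had at least 10 reads, and together they held 11080 reads. SNORA63, an H/ACA snoRNA with several copies in the genome, was read most: the copy at chr3:186504112-186504234 in EIF4A2, the gene of a translation initiation helicase, held 1111 reads. The second copy of EIF4A2 (chr3:186505089-186505220) held 369 reads, and a copy on chromosome 15 without a host gene held 252 reads. These copies share sequence, as described below for their 5′ ends.

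SNORA74A, in MATR3 and SNHG4, held 749 reads. SNORA50, in the CCR4-NOT scaffold gene CNOT1, held 643 reads and SNORA77, in the gene of the Ran-binding protein RANBP1, held 541 reads. SNORA36B held 534 reads, SNORA8 in TAF1D held 438 reads, and SNORA24 in PARP16 held 250 reads. All of them stood far above the median of 12.5 reads among SNORA genes with any read.

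Of the scaRNAs, SCARNA3 in COP1, a ubiquitin ligase gene, held 678 reads. SCARNA7 in the importin gene KPNA4 held 651 reads and belongs to the box C/D type, as SCARNA9 does. SCARNA12 in the prohibitin gene PHB2 (618 reads) and SCARNA6 in the autophagy gene ATG16L1 (504 reads) combine both types of domain. SCARNA4 in KHDC4 held 324 reads and SCARNA18 in TMEM167A held 194 reads. The 2 genes with the symbol SCARNA15 in the annotation used, on chromosome 20 and in POLR1C, held 4 reads and 0 reads. The usual locus of SCARNA15 was not found under this symbol, so these values do not describe that locus. SNORA73B, a copy of the U17 RNA that acts in the cleavage of the ribosomal RNA precursor, was listed with 0 reads.

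**Figure D1:**
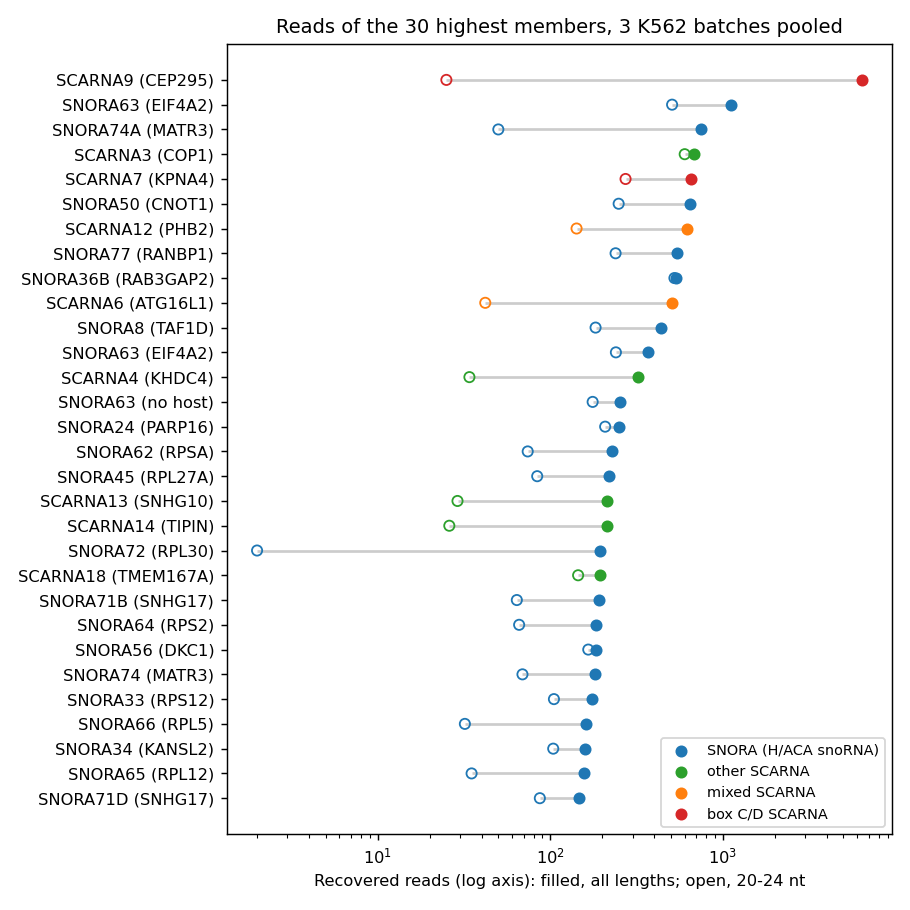
Recovered reads (log axis) of the 30 members with most reads in the pooled K562 profile, with the first host gene in brackets. Filled points give reads of all lengths and open points reads of 20–24 nt: the points nearly meet for SNORA36B (534 and 524 reads), SCARNA3 (678 and 601) and SNORA56 (183 and 166) and lie far apart for SCARNA9 (6417 and 25) and SNORA72 (194 and 2).

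Read number went together with the place of the gene. Of the 222 members inside a longer gene on the same strand, 100 (45.0%, interval 38.6–51.6) had at least 10 reads, against 9 of 227 members with no such host (3.96%, interval 2.10–7.36). In ribosomal protein genes named RPL or RPS and a number, or RPSA, 17 of 19 members had at least 10 reads with a median of 78 reads. SNORA52 in RPLP2, which this choice of names left out, held 85 reads. The median of all hosted members was 6 reads. In SNHG genes, which are long noncoding RNAs that host snoRNAs, 7 of 13 members reached this level. Of all 222 hosted members, 163 lay in introns of all annotated transcripts, and 56 of these had at least 10 reads, SCARNA9, SCARNA3 and SNORA50 included. The other 59 overlapped an exon of at least 1 transcript, and 44 of these had at least 10 reads, both SNORA63 copies of EIF4A2 and SNORA56 included. Members that overlapped an exon thus reached this level more often than those in introns only.

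Genes with reads more often carried the ACA box. The letters ACA within 3 nt of the expected place near the 3′ end were found in 84 of 92 SNORA genes with at least 10 reads (91.3%, interval 83.8–95.5) and in 206 of 306 with fewer (67.3%, interval 61.9–72.3). They were found in 27 of 39 scaRNA genes without known box C/D domains, and in 26 of 390 SNORD genes (6.67%). Mappability was also compared. The median share of 20-mers that occur once in the genome was 89.7% in members with at least 10 reads, 80.9% with 1 to 9 reads and 92.2% with no read.

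Fragment length varied between classes and between genes of a class. Reads of SNORA genes had a median length of 23 nt (quartiles 20 and 26), and 46.7% of them (45.7–47.6) were 20–24 nt long. The scaRNAs without known box C/D domains were alike, with a median of 22 nt and 51.0% of 2000 reads at 20–24 nt (48.8–53.1). The box C/D scaRNAs had a median of 29 nt and 4.21% of 7073 reads at 20–24 nt, but 6417 of these reads were of SCARNA9 (0.390% at 20–24 nt). SCARNA7 was the only other gene of this class above the minimum of 10 reads, and its 651 reads had a median of 20 nt and a share of 41.9% there. The mixed scaRNAs had 15.7% of 1189 reads there, with 23% and a median of 19 nt in SCARNA12 and 8.33% and a median of 29 nt in SCARNA6.

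Pooled over all members, 31.3% of reads were 20–24 nt long (30.7–31.9). This share rested largely on SCARNA9, of whose reads 25 were in the window, and it was 44.6% without that gene. The same share was 25.4% in SNORD genes and 96.2% in miRNA hairpins, and SNORA genes lay between these classes. The members themselves ranged widely, from 98.1% in SNORA36B, 97.0% in SNORA7 of CA5B and 90.7% in SNORA56 to 6.68% in SNORA74A and 1.03% in SNORA72.

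**Figure D2:**
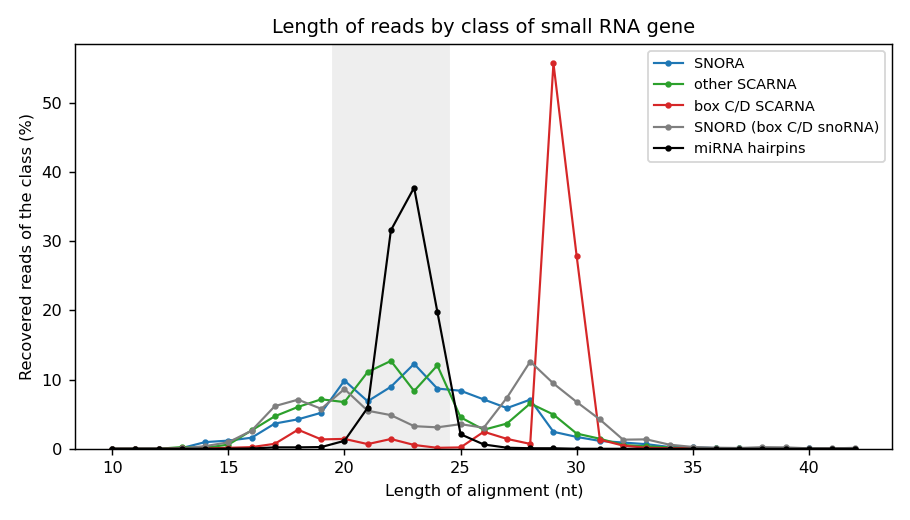
Share of recovered reads of a class (%) at each alignment length (nt), with 20–24 nt shaded. The miRNA hairpins form a narrow peak with 96.2% of reads in the shaded range, SNORA (46.7%) and other SCARNA genes (51.0%) are broad, and the peak of box C/D SCARNA genes at 29 and 30 nt is mainly SCARNA9 (6417 of 7073 reads), as SCARNA7 has 41.9% of 651 reads in the shaded range.

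Positions are counted from 1 at the first annotated base of the gene. For the split into hairpins, the 425 SNORA and scaRNA genes of at most 200 nt and without known box C/D domains were used, of which 100 had at least 10 reads. The hinge was set at the H box candidate (ANANNA, N for any base) in the middle of the gene that gave the lowest folding energy of both parts, and a candidate was found in 97 of the 100 genes.

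Reads of these 100 genes lay mainly in the 5′ hairpin: 3721 of 12246 reads, or 30.4% (29.6–31.2), fell in the 3′ hairpin. The 5′ hairpin held more reads in 63 genes and the 3′ hairpin in 37. Several genes were read almost only on 1 side. At least 90% of reads were in the 5′ hairpin of 30 genes, SNORA50 (0 of 643 reads in the 3′ hairpin) and the SNORA63 of most reads (5 of 1111) among them, and in the 3′ hairpin of 15 genes. The latter included SNORA7 (132 of 132), SNORA56 (176 of 183), SNORA9 in DDX55 (104 of 109) and SNORA26 in DANCR (106 of 113).

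**Figure D3:**
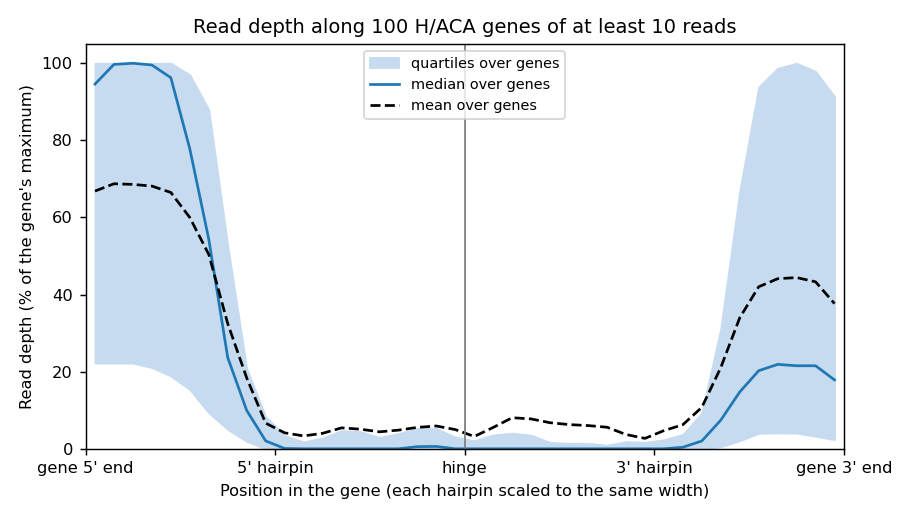
Read depth along the 100 H/ACA genes of at least 10 reads, as percent of the maximum of each gene, with each hairpin scaled to the same width and the hinge at the vertical line. The line is the median over genes, the band the quartiles and the broken line the mean: depth is high at both outer ends of the gene, higher at the 5′ end, and near 0 in the middle.

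Most reads shared an end with the mature RNA. Of the 12246 reads, 64.2% (63.4–65.1) began within 3 nt of the annotated 5′ end and 19.5% (18.8–20.2) ended within 3 nt of the annotated 3′ end. The remaining 16.3% (15.6–17.0) had neither. Not all of these lay inside the gene, as 193 reads began 7 nt and 74 reads 4 nt before the annotated start. The first annotated base itself was the start of 29.2% of reads, and 19% began 1 nt and 9.12% began 2 nt before it. At the other side, 11.3% of reads ended at the last annotated base and 4.83% ended 3 nt before it.

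The reads of these 3 places also differed in length. Reads at the 5′ end, found in 86 genes, had a median length of 24 nt (quartiles 20 and 27), and 39.9% (38.9–41) were 20–24 nt. Reads at the 3′ end, in 85 genes, had a median of 23 nt and 57.9% (55.9–59.8) in this window. Reads at neither end, in 87 genes, had a median of 22 nt (21 and 24) and 70.4% (68.3–72.3) in this window. These pooled shares lean on a few genes. SCARNA3 had 678 reads, 136 at the 5′ end and 165 at the 3′ end, with 88.6% of all its reads in the window. SNORA56 (183 reads, 4 and 5 at the ends) had 90.7%, but SNORA23 (143 reads, 0 and 1) had 46.9%. SNORA36B alone held 377 of the reads at the 3′ end, with 98.1% of its reads in the window. The shares were not recomputed without these genes.

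Alignments were then grouped into fragments: the alignment of most reads in a gene was joined with all alignments within a total end shift of 3 nt, and the step was repeated on the rest. At the minimum of 10 reads this gave 219 fragments in 94 genes, which held 89.9% of all member reads. At the 5′ end of the gene lay 123 fragments, at the 3′ end 60, and 36 were at neither end, 6 of which began more than 3 nt before the annotated start.

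For each fragment, the share of all overlapping reads with exactly its 5′ or 3′ end was taken. Fragments at the 5′ end of the gene shared the 5′ end with a median of 79.8% of overlapping reads and the 3′ end with 19.5%. Those at the 3′ end showed the opposite, with 27.2% for the 5′ end and 87.4% for the 3′ end. In both cases the constant end was the end of the mature RNA and the variable end lay inside it. Fragments at neither end had medians of 68.6% and 34.2%.

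**Figure D4:**
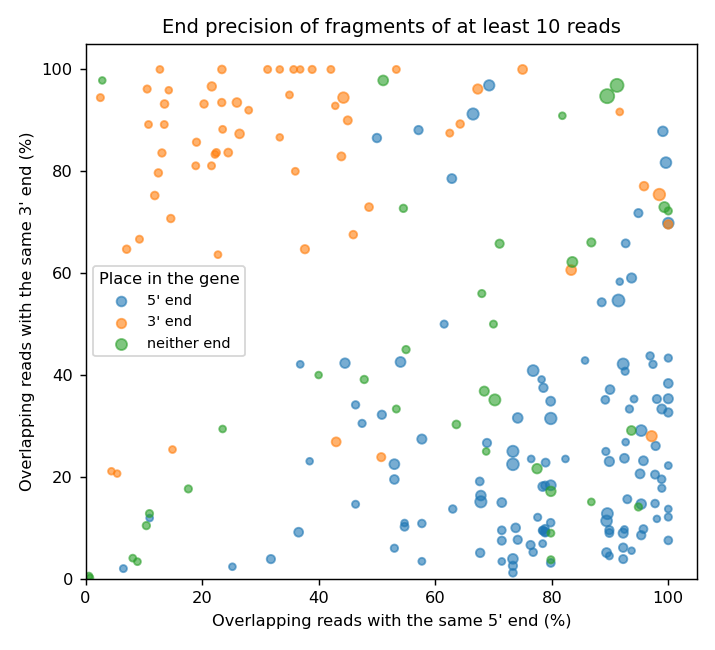
Share of overlapping reads with the same 5′ end (x axis, %) and the same 3′ end (y axis, %) for the 219 fragments of at least 10 reads; point size grows with reads. Fragments at the gene 5′ end (median 79.8% and 19.5%) lie to the lower right, those at the 3′ end (27.2% and 87.4%) mostly to the upper left, and the fragments at neither end are spread between.

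A fragment was called Dicer-like when it had at least 10 reads, a length of 20–24 nt, and its exact 5′ end in at least 50% of the overlapping reads. The call describes shape and did not test for Dicer. It was met by 60 fragments in 53 genes, or 48.6% of the 109 members with at least 10 reads. The same call was met in 41.7% of SNORD genes, 82.5% of miRNA hairpins and 73.5% of all other small RNA genes with at least 10 reads. Of the 884 genes behind this last share, 702 were miRNA hairpins and 139 were SNORD genes, so it mainly repeats these classes. Among single fragments the share was 27.4% for members, 8.13% for SNORD genes and 54.1% for miRNA hairpins. It was 35.2% for all small RNA genes that are no members, miRNA hairpins and SNORD genes included. These fragments held 4942 reads, or 23.2% of member reads (22.6–23.7).

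The call held fragments of different shape. In 39 of the 60, found in 38 genes with 3159 reads, the fragment began before the gene or within 3 nt of its first base, so that its 5′ end was near that of the mature RNA. The other 21, in 18 genes with 1783 reads, had a 5′ end cut inside the gene. These genes were 16.5% of the members with at least 10 reads. The share was 5.04% of SNORD genes, 81.1% of miRNA hairpins and 66.6% of all other small RNA genes, which include both of these classes. For the first kind the median share of the same 5′ end was 90% and that of the same 3′ end 25%. For the second kind these were 70.2% and 65.8%, and 15 of the 21 shared the 3′ end with at least 50% of overlapping reads, against 6 of the 39. Of the 21, 8 ended within 3 nt of the 3′ end of the gene, where a fixed 3′ end is near that of the mature RNA, and 7 of these 8 were among the 15. Of the other 13, 8 shared the 3′ end at this level.

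The place of the first kind follows from its start at the gene start. Of the 39 fragments at the gene start, 38 lay on the 5′ arm of the 5′ hairpin and 1 in SCARNA7, which was not folded. Of the 21 cut inside, 7 lay on the 5′ arm and 8 on the 3′ arm of the 3′ hairpin, 1 spanned both arms of it, 2 lay in the 5′ hairpin and 3 in genes that were not folded. The first base was T in 11 of these 21 fragments, A in 4, C in 3 and G in 3. Of the 39 at the gene start, 14 began with A, 12 with T, 7 with C and 6 with G, and of the 159 fragments not called, 51 began with T and 50 with A.

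SCARNA3 gave the clearest pair. The fragment at positions 82 to 102 held 325 reads and that at 120 to 141, on the other arm of the 3′ hairpin, held 174 reads. In the fold the pair left 2 nt at the 3′ end on either side. The second fragment ended within 3 nt of the 3′ end of the gene (length 143 nt), so its 3′ end was near that of the mature RNA. The exact 5′ end was shared by 70.2% of reads overlapping the first fragment and by 97.1% of reads overlapping the second. Another fragment at the 5′ end of the gene (2 to 22) held 124 reads. Mature miR-1843 spans positions 82 to 101, and 291 reads, or 42.9% of those of SCARNA3, lay within 3 nt of it. Only 16 had exactly its ends, as the fragment of most reads ran 1 nt further at the 3′ end.

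SNORA36A gave a second pair with 2-nt overhangs at both ends, of the fragments at 69 to 92 (18 reads) and 108 to 129 (46 reads). The former equals miR-664b-5p and the latter miR-664b-3p. The fragment at 108 to 129 ended within 3 nt of the 3′ end of the gene (length 132 nt), so its 3′ end was near that of the mature RNA. The fragment of miR-664b-3p has 2 exact matches in the genome, since SNORA36C in AAK1 holds the same letters, and 48 reads were listed there. The reads of this fragment therefore cannot be assigned to either gene by sequence, whereas the fragment of miR-664b-5p has 1 exact match.

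SNORA36B was read almost only at its listed miRNAs. Of 534 reads, 454 (85.0%) lay within 3 nt of miR-664a-3p at positions 106 to 128, 340 of them with exactly its ends, and 75 (14.0%) lay within 3 nt of miR-664a-5p at 68 to 91. The fragment on the 3′ arm had its 5′ end in 98.5% and its 3′ end in 75.4% of overlapping reads. Its 3′ end lay within 3 nt of the 3′ end of the gene (length 131 nt). The fragment on the 5′ arm began at 68 and ended mostly at 89, so that 5 reads had exactly the ends of miR-664a-5p. The H box rule placed the hinge inside this stem, which put the fragment of 75 reads in the 5′ hairpin. With the gene midpoint as hinge it lay on the 5′ arm of the 3′ hairpin opposite the fragment of 454 reads, with overhangs of 1 nt and -3 nt.

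SNORA56, which like SNORA36A lies in DKC1, the gene of the pseudouridine synthase itself, held 145 reads at positions 67 to 89 on the 5′ arm of the 3′ hairpin. The 5′ end was shared by 83.5% of overlapping reads. A weak partner at 103 to 124 had 8 reads, and the pair had ends of 0 and -1 nt in the fold. No mature miRNA of RefSeq was found in SNORA56.

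Further fragments cut inside the gene had no partner or had one without 2-nt overhangs at both ends. SNORA7 in CA5B had 120 reads at 114 to 136 on the 3′ arm of the 3′ hairpin, with the 5′ end in 83.3% of overlapping reads and no partner. This SNORA7 fragment ended within 3 nt of the 3′ end of the gene (length 139 nt). SCARNA18 had 147 reads at 70 to 93 on the 5′ arm of the 3′ hairpin, with 99.3% and no partner, and that sequence has 2 exact matches in the genome. SNORA77 in RANBP1 had 26 reads at 64 to 87, opposite 13 reads at 99 to 123, with overhangs of 5 nt and 3 nt. Over the 21 fragments, 9 had a partner of at least 2 reads on the other arm, and 4 of these, from SCARNA3 and SNORA36A, had 2-nt overhangs at both ends.

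At the gene start, called fragments often stood among others with the same 5′ end and another length. The SNORA63 of most reads had 352 reads in its 20-nt fragment at 1 to 20 and 553 reads in a 25-nt fragment at 1 to 25. SNORA50 had 307 reads at 1 to 20 and 256 reads at 1 to 25. SNORA8 had 104 reads at 0 to 22 and 261 reads at 0 to 17, and SNORA77 in RANBP1 had 332 reads at -1 to 18 (position 0 being the base before the gene) and 78 reads at -1 to 23. In each of these genes the fragments had the same 5′ end and differed at the 3′ end.

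In 6 of the 39 fragments at the gene start the 3′ end was also shared by at least 50% of overlapping reads, namely in SNORA24, the SNORA63 copy on chromosome 15, SCARNA1, SNORA71D, SNORA22 and SNORA81. SNORA24 in PARP16 had 242 of its 250 reads in the fragment at 1 to 24, with the 5′ end in 99.6% and the 3′ end in 81.7% of overlapping reads. The SNORA63 copy on chromosome 15 had 226 of 252 reads at 1 to 20, with 100% and 69.8%. Both fragments have 2 exact matches in the genome, so the reads of the SNORA24 fragment cannot be assigned to this gene by sequence either. The 5′ fragments of the SNORA63 copies are shown with the seed in capitals. The first is the same at chr3:186504112-186504131 (plus strand, EIF4A2, 352 reads) and chr15:78383620-78383639 (minus strand, 226 reads). The second lies at chr3:186505088-186505110 (plus strand, EIF4A2, 281 reads) and the third at chr1:36884158-36884179 (minus strand, OSCP1, 57 reads). The second sequence is the third with 1 more base at its start, so their seeds differ by a shift of 1 base. The first sequence differs from both at several letters.
SNORA63 (EIF4A2, and chromosome 15): aTGCAGGTactgttacaata
SNORA63 (EIF4A2, second copy): aAAGCAGGattcagactacaata
SNORA63 (OSCP1): aAGCAGGAttcagactacaata
The alignments were kept as unique by the authors although this first sequence has 2 exact matches, so the reads of the chromosome 15 copy cannot be assigned to it by sequence. In all, 13 of the 60 called fragments (5 cut inside the gene and 8 at the gene start) have more than 1 exact match in the genome.

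Pairs across the 5′ hairpin had few reads. SNORA45 in RPL27A had 41 reads at 1 to 22 opposite 4 reads at 40 to 61, and SNORA22 in CCT6A had 10 reads at 1 to 21 opposite 3 reads at 38 to 59, both with 2-nt overhangs at both ends. SNORA3 in RPL27A had 17 reads at 1 to 22 opposite 20 reads at 40 to 62, with overhangs of 2 nt and 1 nt, and both of these fragments met the call.

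Mature miRNAs of RefSeq were found by sequence in 7 members, and no GENCODE miRNA gene overlapped a member. Besides those above, miR-1291 in SNORA34 of KANSL2 had 88 reads within 3 nt of its ends, or 55.7% of the gene, 6 of them exact. Here miRNA and snoRNA share the 5′ end, as the miRNA begins at position 2. The other 2, miR-1248 in SNORA81 of EIF4A2 with 11 reads and miR-3651 in SNORA84 of IARS1 with 8 reads, had 0 reads with exactly their ends.

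The 159 fragments that were not called were mostly of other lengths, 78 longer than 24 nt and 46 shorter than 20 nt, and 35 were 20–24 nt with a 5′ end that varied. The longest of high number came from the scaRNAs with box C/D domains. SCARNA9 had 4580 reads in the fragment at 31 to 59, with its 5′ end in 89.5% and its 3′ end in 94.8% of overlapping reads, and 1689 reads at 286 to 315, with 91.2% and 96.9%. Together they made up most of this gene, both ends were fixed, and neither lay at a gene end (gene length 353 nt). The first has 2 exact matches in the genome, so its reads cannot be assigned to SCARNA9 by sequence.

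SCARNA6 had 380 reads at 2 to 30 (66.5% and 91.3%), and the related SCARNA5 in the same host ATG16L1 had 45 reads at 2 to 30. These 4 fragments were the only ones of the 219 that held TGATGA followed by CTGA, none was in a SNORA gene, and none was called Dicer-like. Of all 29-nt windows on the sense strand of the members, 0.117% held this order of letters (59 of 50481 windows, which overlap), and a match of letters is a description and not a tested site. The other strand was not searched.

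SCARNA7 and SCARNA12 gave fragments of several lengths at the gene start instead. SCARNA7 had 446 reads at 1 to 18 and 131 reads at 1 to 22, and SCARNA12 had 370 reads at 1 to 19. SNORA74A, a U19 RNA, had 670 of its 749 reads at 0 to 27, with the 5′ end in 91.4% and the 3′ end in 54.6% of overlapping reads. SCARNA4 had its main fragment at the other side, with 214 reads at 102 to 129, the last base of the gene, a 3′ end shared by 94.5% and a 5′ end shared by 44.3% of overlapping reads.

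Genes of the H/ACA particle and of the miRNA pathway were counted by reads of at least 18 nt in their exons, per kb of exon and with member reads left out. DKC1 had 8.05 reads per kb, NHP2 8.81, GAR1 10.7 and NOP10, another core protein gene, 19. The assembly factor genes NAF1 and SHQ1 had 7.12 and 1.71, and WRAP53, whose protein brings scaRNAs to Cajal bodies, had 3.33. TERC, the telomerase RNA with an H/ACA domain of its own, had 124 reads per kb (67 reads). DROSHA had 9.12, XPO5 12.7, TARBP2 4.89, AGO1 7.19, AGO2 11.9 and DICER1 1.04. DGCR8 had 249, but 1720 of its 1824 reads overlapped annotated miRNA genes, and 14.2 per kb remained without them. Such reads are pieces of RNA of 18–42 nt and do not give mRNA levels.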

How the data were processed

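Small RNA libraries were made from total RNA of 3 K562 replicates, and library products with inserts of 20–40 nt were selected and sequenced. The authors aligned the reads with Bowtie2 2.2.9 on GRCh37 and kept unique alignments. The deposited table pools the replicates and gives, per alignment, a read count and an RPKM computed by the authors over a total of 54140681 reads. For 1246133 of 1246133 alignments with near neighbours, the neighbour number divided the deposited count without remainder. By this inference, which the authors do not state, counts were divided by it, giving 47670688 recovered reads in 3688019 alignments. RPKM was used only to derive the total of 54140681 reads and played no part in the division. That total is larger than the sum of recovered reads, and the difference was not examined. No column of a single sample was found, and the HEK293 samples were not analysed here.

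Genes came from GENCODE 44 lifted to GRCh37. Any overlap on the same strand counted. Hairpins were folded with ViennaRNA 2.7.2, and exact matches were counted on both strands of the genome. Box C/D and mixed scaRNAs (SCARNA2, 7, 9 and 17, and SCARNA5, 6, 10 and 12) were set by symbol. Of these symbols, SCARNA2 and SCARNA10 had no gene among the members. One gene named SNORA40, a long RNA gene with 1 read, was kept in the totals only. Shares have Wilson 95% intervals. Reads carry no molecular identifiers, so intervals cover counting error only. No test was run, as there are no replicate values. Members, lists and thresholds were chosen with earlier results of these data known.

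The text names the 15 members with most reads, the 12 whose Dicer-like fragments held most reads, members with a RefSeq mature miRNA (chosen after the values were seen, since no GENCODE miRNA gene overlapped a member), SCARNA15, SNORA73B, the listed pathway genes, and further examples chosen after their values were seen. SNORA73A and the usual locus of SCARNA15 were not found under those symbols in the annotation used. Neighbour counts, genome matches and fragment calls were tested on simulated data. Alternatives covered strand, flanking windows, read and length limits, weighting, hinge and end precision. Python 3.11.15, numpy 2.4.6, pandas 2.3.3, scipy 1.17.1, numba 0.67.0 and matplotlib 3.10.9 were used.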

Additional observations from a re-analysis of the deposited data

How the results depend on the processing

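No paired analysis was possible because the deposited values pool the 3 K562 replicates. The number of members with at least 10 reads (109) became 212 at 1 read and 42 at 100 reads. It was 1 on the opposite strand, 12 in upstream and 14 in downstream windows, and 6 and 11 where the windows hold no other small RNA gene (chosen after seeing the data). It was 107 with alignments of 18 nt or longer, 98 without alignments of 1 read and 132 with deposited reads. The share of reads of 20–24 nt (31.3%) was 37.5% with each alignment counted once, 46.2% as a median over genes and 46.6% without the 3 highest members, and, among settings chosen after seeing the data, 44.6% without SCARNA9 and 27.2% with deposited reads. The share in the 3′ hairpin (30.4%) was 31.8% for genes with an ACA box and 33.4% without the SNORA63 of most reads (added later), and stayed within its interval for the other settings of the hinge and length. The number of Dicer-like fragments (60) was 15 at 100 reads, 33 where 80% of reads had to share the 5′ end, 95 with no such limit, and 21 with the 5′ end inside the gene (added later). It ran from 41 to 87 over the other settings, with 47 for fragments with 1 genome match and 51 without members that hold a mature miRNA. Each setting changed a limit, the genes or strand counted, or the weighting of reads; the cause of the moves was not tested. The depth limits the 103 members with 1 to 9 reads, for which no fragment could be called.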

Other observations

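SNORA70 had the most copies among the members, 30 genes with 113 reads in all, of which the highest held 22. Reads were listed at 11 of the 30 copies. The same 22-nt fragment at the 3′ end of the gene was listed with 17, 15 and 14 reads at 3 SNORA70 copies and with 13 reads at SNORA70B of USP34. It matches the genome at 8 places, so that 1 source of these reads cannot be told apart from several.

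Of the called fragments, 5 seeds (bases 2 to 8) were shared by more than 1 fragment. Copies of the same RNA accounted for SNORA15 (41 reads together), SNORA36C with SNORA36A (94 reads), SNORA63 (578 reads) and 2 lengths of 1 SCARNA11 fragment (72 reads). The remaining pair joined SNORA50 of CNOT1 and SNORA54 of NAP1L4, both with the seed AGCACTG at the start of the gene. Of their 320 reads together, SNORA50 held 307, so the SNORA54 fragment was near the minimum of 10 reads.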
